A study of Mus musculus with 2 samples.

Results

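The genes described here are the small Cajal body RNA genes (symbols beginning with Scarna) and the box H/ACA small nucleolar RNA genes (symbols beginning with Snora) of the mouse. They were chosen by symbol alone, which gave 51 gene entries (9 Scarna and 42 Snora) of 55536 annotated genes. Snora16a and Snora43 each stand for 2 overlapping entries, so the 51 entries carry 49 symbols. The values come from 2 ribosomal RNA-depleted total RNA-seq libraries, replicate 1 and replicate 2, of primary bone marrow-derived macrophages of strain C57BL/6J. Both had been given 100 ng/ml of lipid A, which activates the receptor TLR4 as the inner moiety of bacterial lipopolysaccharide, for 25 min, and RNA came from the nucleoplasmic fraction, which another label calls nuclear. Both libraries form 1 group, so the values are levels in treated cells. Their biological replicate numbers differ but their donor entry is one and the same, and the spread between them may therefore be technical. The labels give 500 ng of starting RNA for replicate 1 and 1 µg for replicate 2.

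Box H/ACA RNAs fold into hairpins joined by a single-stranded hinge, the H box, and end in a tail that holds the letters ACA. Each binds dyskerin (Dkc1), Nhp2, Nop10 and Gar1 and guides this enzyme to uridines of ribosomal RNA, which dyskerin turns into pseudouridine. The scaRNAs do the same work, or guide methylation, on spliceosomal RNAs. They stay in the Cajal body, a nuclear body, where the protein Wrap53 binds those that carry a CAB box. Most mammalian guide RNAs are cut from introns of host genes rather than transcribed on their own.

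The members fell into separate length classes. The 51 entries ran from 70 to 414 bases with a median of 133. A class of 9, called longer below, was 178 bases or longer (Scarna2, 10, 13 and 6, and Snora73a, 73b, 74a, 23 and 81), and the other 42 (the short class) were 149 bases or shorter. The labels give a size range of 250 to 400 for the libraries' fragments. They name no unit for it, but if it is in bases, all of the short class and the 5 longer Snora genes are shorter than either bound. Of the 42 Snora sequences, 35 (83.3%) had ACA exactly 3 bases from the 3′ end on the sense strand, against 0 of 99 Snord genes, the box C/D class, and 1.09% of 736 other small RNA genes of the same length range. The hinge pattern ANANNA began between 40 and 60% of the length in 38 of 42 Snora sequences (90.5%), against 44.4% of Snord genes and 27.4% of the other small RNA genes. The annotated sequences thus carried the letters that the label H/ACA calls for. Because the symbols already name that class, these shares describe the annotation and are no independent support for it.

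The sequences of members that the results below turn on are shown from the GENCODE M21 transcripts, as DNA letters from 5′ to 3′. Snora73b and Snora73a are shown because they differed most between the libraries among the 8 members with at least 10 counts in both. They are near copies, and capitals mark the bases at which each differs from the other. The differences, counted from 1 at the 5′ end with the base of Snora73a first, are G3A, G54A, A111G, T164C, G203A, T204A and T205A.

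Snora73b: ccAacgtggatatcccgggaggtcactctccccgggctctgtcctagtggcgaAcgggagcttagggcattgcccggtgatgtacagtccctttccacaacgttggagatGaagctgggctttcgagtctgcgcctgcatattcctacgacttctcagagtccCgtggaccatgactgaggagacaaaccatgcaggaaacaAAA

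Snora73a: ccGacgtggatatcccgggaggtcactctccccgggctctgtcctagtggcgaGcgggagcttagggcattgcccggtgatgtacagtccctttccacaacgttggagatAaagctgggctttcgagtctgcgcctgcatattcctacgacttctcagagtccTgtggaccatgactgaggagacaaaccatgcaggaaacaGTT

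Scarna13 and Scarna6 are shown as 2 of the 4 scaRNAs with ample counts. Capitals mark TGAG, letters of the CAB box that a search on the sense strand found, and in Scarna13 also the ACA 3 bases from its end.

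Scarna13: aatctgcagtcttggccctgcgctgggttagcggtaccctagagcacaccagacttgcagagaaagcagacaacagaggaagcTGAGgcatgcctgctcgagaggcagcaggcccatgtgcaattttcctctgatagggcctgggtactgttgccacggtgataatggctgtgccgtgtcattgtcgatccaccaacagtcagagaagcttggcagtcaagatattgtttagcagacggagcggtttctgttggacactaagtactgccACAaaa

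Scarna6: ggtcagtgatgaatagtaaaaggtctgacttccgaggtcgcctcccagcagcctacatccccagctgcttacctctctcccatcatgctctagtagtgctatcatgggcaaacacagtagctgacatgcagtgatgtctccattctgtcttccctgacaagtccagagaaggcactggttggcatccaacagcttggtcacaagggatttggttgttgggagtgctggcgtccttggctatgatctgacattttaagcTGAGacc

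TGAG was found in 8 of 9 Scarna sequences, but also in 45.2% of Snora sequences, 82.8% of Snord sequences and 52.0% of the other small RNA genes, so its presence sets no member apart. The next 3 sequences are Snora genes whose counts or TPM are taken up below beside the length and the quantification, with the ACA 3 bases from the end in capitals. The one after them, Snora81, has no ACA among its final 10 bases and so carries no capitals.

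Snora23: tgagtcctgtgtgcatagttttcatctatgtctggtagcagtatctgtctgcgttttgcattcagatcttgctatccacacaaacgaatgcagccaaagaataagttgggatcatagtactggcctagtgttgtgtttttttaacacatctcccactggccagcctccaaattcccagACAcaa

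Snora31: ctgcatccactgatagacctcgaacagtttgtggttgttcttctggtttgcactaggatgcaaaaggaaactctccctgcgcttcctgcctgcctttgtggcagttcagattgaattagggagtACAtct

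Snora78: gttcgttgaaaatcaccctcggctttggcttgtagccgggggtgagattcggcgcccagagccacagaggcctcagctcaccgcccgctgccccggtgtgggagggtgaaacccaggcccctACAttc

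Snora81: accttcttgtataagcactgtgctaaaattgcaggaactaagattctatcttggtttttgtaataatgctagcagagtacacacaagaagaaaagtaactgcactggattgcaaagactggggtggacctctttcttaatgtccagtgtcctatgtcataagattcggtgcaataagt

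Estimated counts are the reads that the authors' quantification assigned to a gene. A gene is called detected here where it had at least 10 of them in both libraries. TPM divides a count by the effective length, the number of positions at which a fragment could start, and scales each library to a fixed total. Over annotated genes the gene table held 13506939 counts in replicate 1 and 17932332 in replicate 2. A 0 leaves room for as many as 3 counts, or 0.222 CPM in replicate 1 and 0.167 CPM in replicate 2, CPM being the count scaled to a total of 1e+06. Of the macrophage markers 6 of 6 were detected in the gene table, from 37.8 to 1648 TPM on average, and 0 of the 7 markers of neutrophils, B cells and T cells. In the authors' alignment-free quantification, taken up below, the T cell marker Cd3d had 520 counts in replicate 1 and 227 in replicate 2. There the B cell marker Cd79a had 13 and 14 counts and the neutrophil marker S100a9 had 10 and 13. The other markers of these cells stayed under 10 in at least 1 library. Of the nuclear RNAs, Malat1 and Neat1 were both detected, at 23692 and 1883 TPM on average. The megakaryocyte marker Pf4 averaged 59.3 TPM and the erythroid marker Hbb-bs was listed at 0. In bulk RNA, fewer cells that make an RNA and less of it per cell cannot be told apart.

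All members together held 5805 counts in replicate 1 and 13703 in replicate 2. These were 0.0430% (95% Wilson interval 0.0419 to 0.0441) and 0.0764% (0.0751 to 0.0777) of each library's counts, and the intervals did not overlap. Of the 51 members 8 (15.7%) were detected, beside a background of 26.3% of all annotated genes. The 8 were Scarna2, Scarna10, Scarna13, Scarna6, Snora73a, Snora73b, Snora74a and Snora81, all of the longer class. In that class 8 of 9 were detected, and in the short class 0 of 42. A further 24 members, all of the short class, were listed at 0 counts in both libraries.

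Scarna2 and Scarna10 led by a wide margin, with 80.8% of the members' counts in replicate 1 and 74.3% in replicate 2. Scarna2, whose human counterpart is a box C/D type methylation guide, had 2547 counts in replicate 1 and 4207 in replicate 2. Scarna10, whose human counterpart joins a C/D and an H/ACA part in one RNA, had 2144 counts in replicate 1 and 5969 in replicate 2. By count Scarna2 was first in replicate 1 and Scarna10 first in replicate 2. By TPM Scarna10 was above Scarna2 in both, at 1370 against 933 TPM in replicate 1 and 1802 against 793 TPM in replicate 2. The means were 1586 ± 306 TPM for Scarna10 and 863 ± 98.6 TPM for Scarna2 (SD, n = 2), and the ranges over the libraries did not overlap. Scarna10 (chr6:125186359-125186683) lies in Ncapd2, and 281 of its 325 bases fall in annotated exons of Ncapd2 or Gm28967, so its count was partly a split of shared reads. Scarna2 (chr3:108554338-108554751) overlaps no exon of another gene. The annotated lengths of both exceed those of the RefSeq entries of the same symbols, 71 bases for Scarna10 and 61 for Scarna2.

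Scarna13 and Scarna6 followed. Scarna13 had 539 counts and 554 TPM in replicate 1, and 930 counts and 415 TPM in replicate 2. Scarna6 had 250 counts and 289 TPM in replicate 1, and 609 counts and 299 TPM in replicate 2. Scarna6 was the steadiest of the 8 in TPM, with a mean of 294 ± 7.06 TPM (SD, n = 2), although its count in replicate 2 was well above that in replicate 1. Scarna13 averaged 484 ± 98.4 TPM, and the ranges of Scarna13 and Scarna6 did not overlap. The remaining 5 Scarna genes are short. Scarna3a had 1 count in replicate 1 and 3 in replicate 2, Scarna3b had 0 and 1.30, and Scarna8, Scarna9 and Scarna17 had 0 in both. Scarna genes as a family held 94.4% of the members' counts in replicate 1 and 85.5% in replicate 2.

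Among Snora genes, Snora73a, Snora73b and Snora74a stood above the others. Snora73, known from yeast and vertebrates as an RNA needed to process the small-subunit ribosomal RNA rather than a modification guide, has both copies inside Rcc1, 248 bases apart. Snora73b (chr4:132352322-132352526) had 63.8 counts and 193 TPM in replicate 1, and 689 counts and 749 TPM in replicate 2. Snora73a (chr4:132352775-132352979) had 71.8 counts and 217 TPM in replicate 1, and 628 counts and 683 TPM in replicate 2. Both were low in replicate 1 and high in replicate 2, and neither copy was above the other in both. The copies are identical at 96.6% of 205 positions, so the split of reads between them is uncertain. Their sum, which that split does not touch, was 136 counts (10.04 CPM) in replicate 1 and 1316 counts (73.4 CPM) in replicate 2. Of the bases of Snora73a, 159 fall in an annotated exon of Snhg3, so its count and the sum may still hold shared reads. Snora74a (chr18:35557032-35557227) had 157 counts and 578 TPM in replicate 1, and 490 counts and 631 TPM in replicate 2. With a mean of 604 ± 37.9 TPM (SD, n = 2) it was the highest Snora gene in mean TPM. In replicate 2, however, it was below Snora73b and Snora73a, and its range lay inside theirs. Its whole span lies in an exon of AC121821.1, so its count is a share of reads that could belong to either.

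Snora81 (chr16:23110756-23110933) and Snora23 (chr7:110046364-110046547) were the last of the longer class. Snora81 had 13.6 counts in replicate 1 and 59.9 in replicate 2, at 80.0 and 116 TPM. The whole span of Snora81 lies in an exon of Eif4a2, so its count is a share of reads that could belong to either. Snora23 had 5 counts in replicate 1 and 19 in replicate 2, at 24.9 and 31.8 TPM, and fell just short of the count minimum. The order by mean TPM among the longer members was Scarna10, Scarna2, Snora74a, Scarna13, Snora73b, Snora73a, Scarna6, Snora81 and Snora23. Scarna13 and Snora73b, Snora73b and Snora73a, and Snora73a and Scarna6 were not separated beyond their spread, and the other neighbours in that order had ranges that did not overlap. In alignment-free TPM the levels were lower and the order partly turned, with Scarna13 at 129 ± 96.7 TPM and Snora74a at 105 ± 55.0 TPM (SD, n = 2), whose ranges overlapped. Scarna10 averaged 464 TPM and Snora73b 76.8 TPM on that scale.

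**Figure D1:**
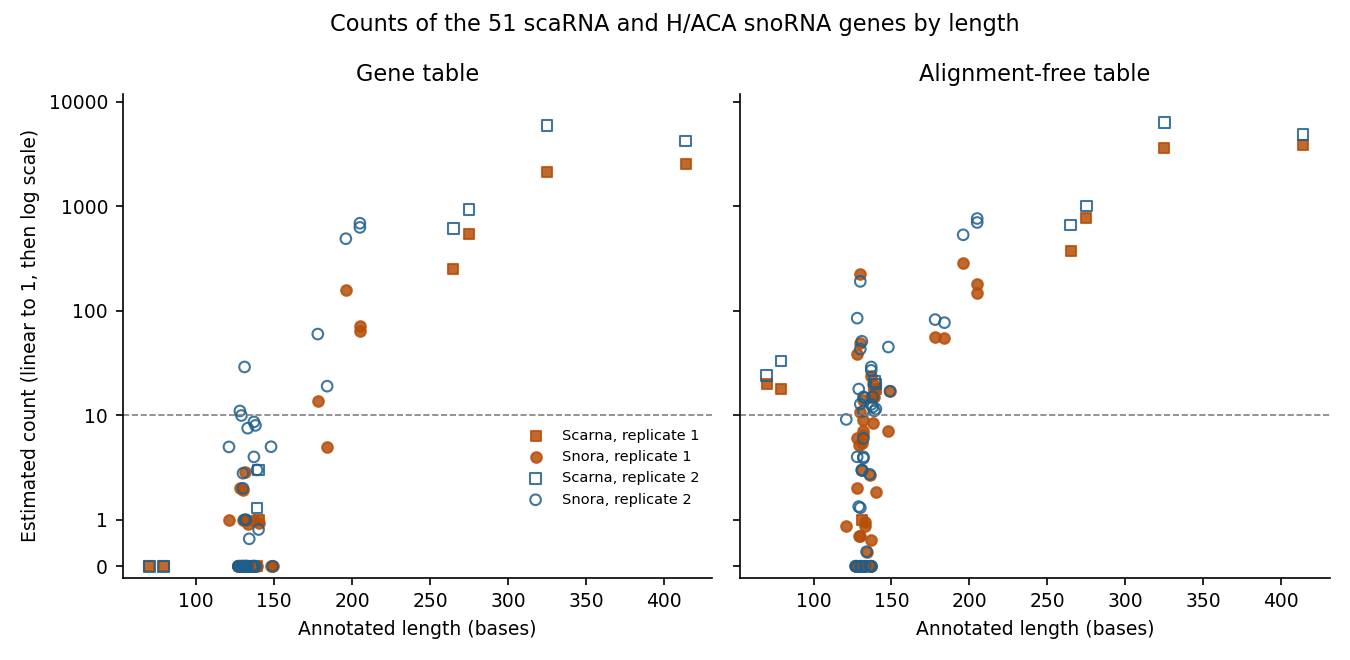
Estimated count (vertical axis, linear to 1 and then on a log scale) of each of the 51 members against annotated length in bases, for the gene table on the left and the alignment-free table on the right. Squares are Scarna and circles Snora genes, filled for replicate 1 and open for replicate 2. The dashed line marks 10 counts. In the gene table the 42 members of 149 bases or shorter had at most 28.99 counts, and in the alignment-free one 14 of them were at 10 counts or above in both libraries.

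The 42 short members together had 14.7 counts in replicate 1 and 104 in replicate 2. The most abundant was Snora68, with 2.88 counts in replicate 1 and 29.0 in replicate 2. Snora78, in Snhg9, had 2 counts in replicate 1 and 11 in replicate 2. These 2 were the only short members with at least 10 counts in either library. In replicate 2 Snora44 had 9.95 counts, Snora52 8.64, Snora34 8 and Snora57 5, and in replicate 1 each of these was at 0. Snora9 had 0.91 counts in replicate 1 and 7.52 in replicate 2, Snora21 had 1 and 4, and Snora61 had 1.94 and 2.79. All of these but Snora68 and Snora78 stayed under the minimum in both libraries. Other small RNA genes of the same lengths, the Gm-named entries included, were detected in 13 of 4733 cases (0.275%), and Snord genes of 160 bases or shorter in 3 of 98. In the length range of the longer members 39 of 505 other small RNA genes were detected (7.72%).

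TPM gave these few reads much more weight. One count was worth 27.3 to 62.3 TPM for short members in replicate 1, and 0.366 to 5.90 TPM for longer ones. In replicate 2 a count was worth 5.39 to 33.6 TPM for short and 0.189 to 1.94 TPM for longer members. The short members' effective length was 0 to 4.26 bases in replicate 1 and 0 to 8.46 in replicate 2, against 12.4 to 200 and 22.5 to 231 for the longer ones. The short class held 0.252% of the members' counts but 13.2% of their TPM in replicate 1, and 0.756% of counts but 20.5% of TPM in replicate 2. Snora68 reached 142 TPM in replicate 1 and 411 TPM in replicate 2. That was above Snora81, at 80.0 TPM in replicate 1 and 116 TPM in replicate 2, which had more counts than Snora68 in each library. Snora78 had 125 TPM in replicate 1, from 2 counts, with the authors' deposited interval running from 15.4 to 366 TPM, and 195 TPM in replicate 2.

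TPM could also hide a count. Snora26, 121 bases long and inside Dancr, had 1 count in replicate 1 and 4.98 in replicate 2, but 0 TPM in replicate 1, where its effective length was listed as 0, and 167 TPM in replicate 2. A floor of 1 TPM in both libraries was passed by 19 members, and 11 of these had under 10 counts in at least 1 library. All members together were 0.488% of TPM in replicate 1 and 0.694% in replicate 2. Spearman's rho between length and count over the 25 members with a count of at least 1 in either library was 0.606 in replicate 1 and 0.681 in replicate 2, and between length and TPM it was 0.515 and 0.440. The points share libraries and effective-length model, and rho is given as a description.

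**Figure D2:**
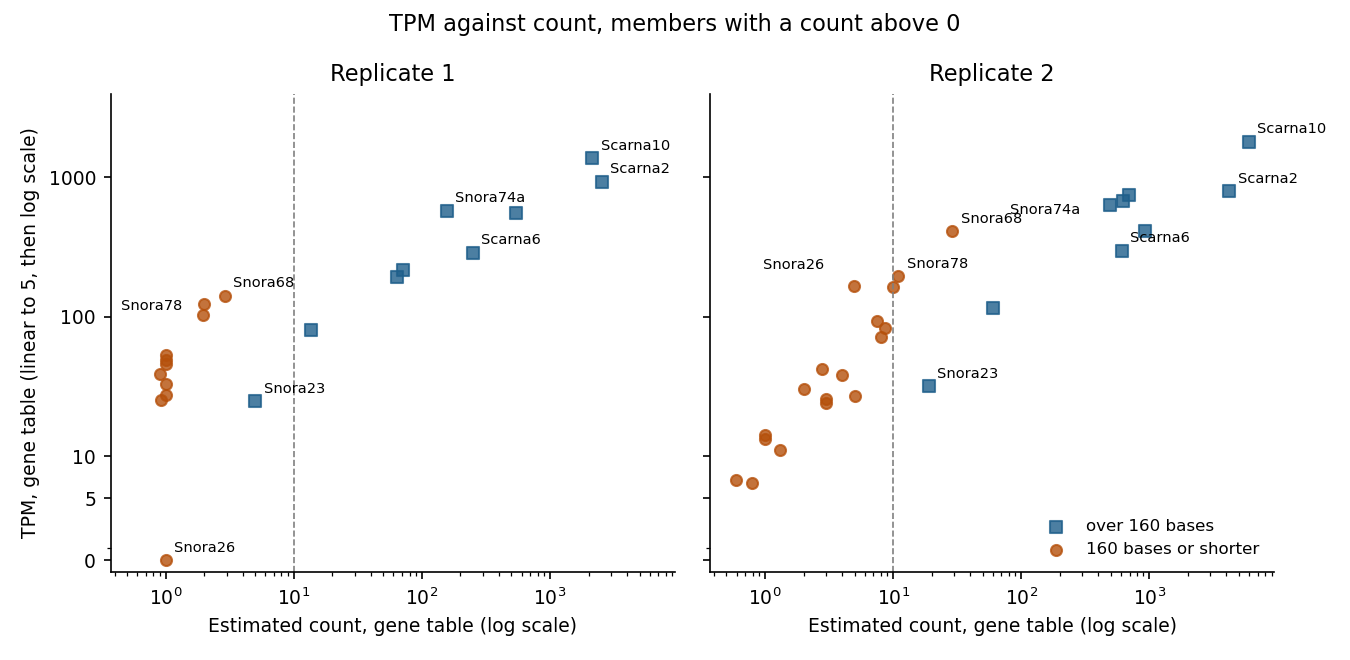
TPM (vertical axis, linear to 5 and then on a log scale) against estimated count (log scale) in the gene table, for members with a count above 0, with replicate 1 on the left and replicate 2 on the right. Squares are the 9 members over 160 bases, circles the short members, and the dashed line marks 10 counts. Short members lie above longer ones of like count, and Snora26 lies at 0 TPM in replicate 1.

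The second quantification, made by the authors from reads without an alignment step, gave the members more counts in all. They had 9944 alignment-free counts in replicate 1 and 15780 in replicate 2. For all annotated genes that table held 1.87 times the gene table's counts in replicate 1 and 1.47 times in replicate 2. For the 9 longer members the ratio was 1.62 in replicate 1 and 1.10 in replicate 2, below that for all genes. For the short class it was far above, with 571 alignment-free counts against 14.7 in the gene table in replicate 1, and 758 against 104 in replicate 2. By alignment-free counts 23 of 51 members (45.1%) were detected, beside a background of 41.5% of all annotated genes, and 14 of these 23 were short.

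Snora31 showed the widest gap. This RNA of 130 bases, in an intron of Tpt1 (chr14:75847905-75848034), had 225 alignment-free counts in replicate 1 and 191 in replicate 2, against 1 and 2 counts in the gene table. By alignment-free count it was the highest short member in both libraries. Snora30, in Srcap, had 49 alignment-free counts in replicate 1 and 43 in replicate 2, against 0 and 0 in the gene table. Scarna17, with 79 bases one of the shortest members, had 18 and 33 against 0 and 0. Scarna9, of 70 bases, had 20 and 24 against 0 and 0. At the other end Scarna6 had 371 alignment-free counts in replicate 1 and 661 in replicate 2, Scarna13 had 774 and 1008, and Snora73b had 147 and 764. Summed over both libraries these were 1.20, 1.21 and 1.21 times the gene table's counts. The libraries differed in this, and Snora73b was at 2.31 times in replicate 1 and 1.11 times in replicate 2. Which table is nearer to the number of molecules was not tested.

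**Figure D3:**
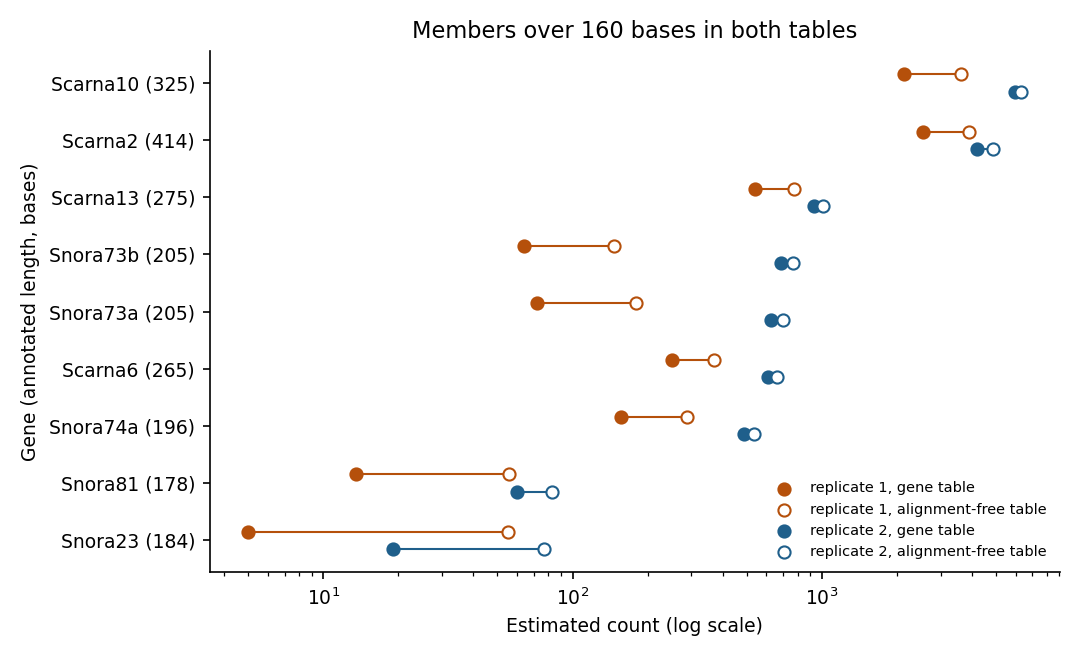
Estimated count (log scale) of each of the 9 members over 160 bases, with annotated length in brackets, in the gene table (filled) and the alignment-free table (open), joined by a line for each library. Replicate 1 is drawn above replicate 2. The tables lie closer together in replicate 2, and Snora23 has the longest lines, with 5 gene table and 55 alignment-free counts in replicate 1.

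Overlap with exons of other genes split the members in another way. Only same-strand exons were considered, and those of miRNA genes and of other members were left out. By this rule 26 of the 51 overlapped no annotated exon of another gene, 6 lay partly and 19 wholly in one. Where no such exon overlapped, 43 of 47 alignment-free values above 0 were whole numbers within 0.005, as when reads are assigned to 1 gene in full. In the 19 wholly covered members 0 of 26 values were whole. The median alignment-free count, as the mean of the libraries, was 18 for uncovered, 22.0 for partly covered and 1.94 for wholly covered members. Counts of covered members are thus uncertain. Snora70 in Rpl10, Snora28 in Eif5, Snora24 in Snhg8 and both Snora16a entries in Snhg12 were wholly covered and at 0 in both tables and libraries. Annotated miRNA genes lay inside 8 members, among them Mir664 in Snora36b, Mir1291 in Snora34 and Mir3069 in Scarna13.

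Hosts were next compared with the RNAs they carry. Of the 51 members 45 lay on the same strand inside another gene, in 40 distinct hosts, and the exceptions were Scarna2, Scarna17, Snora17, Snora57 and both Snora43 entries. Hosts coded for protein for 35 members, 11 of which sat in ribosomal protein genes, and 9 members sat in Snhg genes or Dancr, which are noncoding hosts. Neighbouring members share a host in several places: Snhg12 holds Snora44, Snora61 and the Snora16a entries, and Kansl2 holds Snora34 and Snora2b.

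Of the 7 detected members with a host, 6 had more TPM than the host in both libraries. Scarna10 had 1370 TPM in replicate 1 and 1802 in replicate 2, against 7.30 and 3.13 TPM for Ncapd2, a condensin subunit gene. Scarna13 had 554 and 415 TPM, against 0.23 and 0.25 TPM for the noncoding host Snhg10, which had 1 count and 2 counts. Scarna6 had 289 and 299 TPM, against 34.9 and 18.1 TPM for Atg16l1, an autophagy gene. Snora73a and Snora73b also lay above Rcc1, the nucleotide exchange factor of Ran, which had 4.61 TPM in replicate 1 and 3.28 in replicate 2. Another host of both, Snhg3, had 7.61 and 6.04 TPM. The annotated host with the longest span for Snora74a, Gm28285, was listed at 0 in both, and another host, AC121821.1, had 10.2 and 6.38 TPM. Snora81 was the exception, with 80.0 TPM against 198 TPM for the translation initiation factor gene Eif4a2 in replicate 1, and 116 against 103 TPM in replicate 2. All 178 bases of Snora81 lie in an exon of Eif4a2, so how reads were split within this pair is uncertain. In counts per kilobase, a scale without effective length, Scarna10 was 74.6 times Ncapd2 in replicate 1 and 194 times in replicate 2, and Scarna6 was 2.15 and 5.20 times Atg16l1. On that scale Snora81 was at 0.0328 and 0.158 times Eif4a2 and Snora23 at 0.116 and 0.441 times Ipo7, an importin gene, although Snora23 had more TPM than Ipo7 in both libraries.

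In the gene table, hosts of many short members had reads where the RNAs had few or none. The 37 short members with a host had a median host level of 24.1 TPM in replicate 1 and 18.7 in replicate 2. Of the 22 among them at 0 counts in both libraries, 17 had a host with at least 10 TPM on average. Snora28 was at 0 while Eif5 had 140 TPM in replicate 1 and 143 in replicate 2, and Snora70 was at 0 while Rpl10 had 131 and 114 TPM. Both RNAs lie wholly in exons of these hosts, so reads there could belong to either. The 11 members in ribosomal protein genes had 4.80 counts in all in replicate 1 and 43.0 in replicate 2, and 0 of them were detected in the gene table. In counts per kilobase 1 of the 37 short members was above its host in both libraries, against 6 of 8 longer ones. In TPM it was 5 of 37 short members against 7 of 8 longer ones, and in alignment-free TPM 10 of 37 against 7 of 8.

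**Figure D4:**
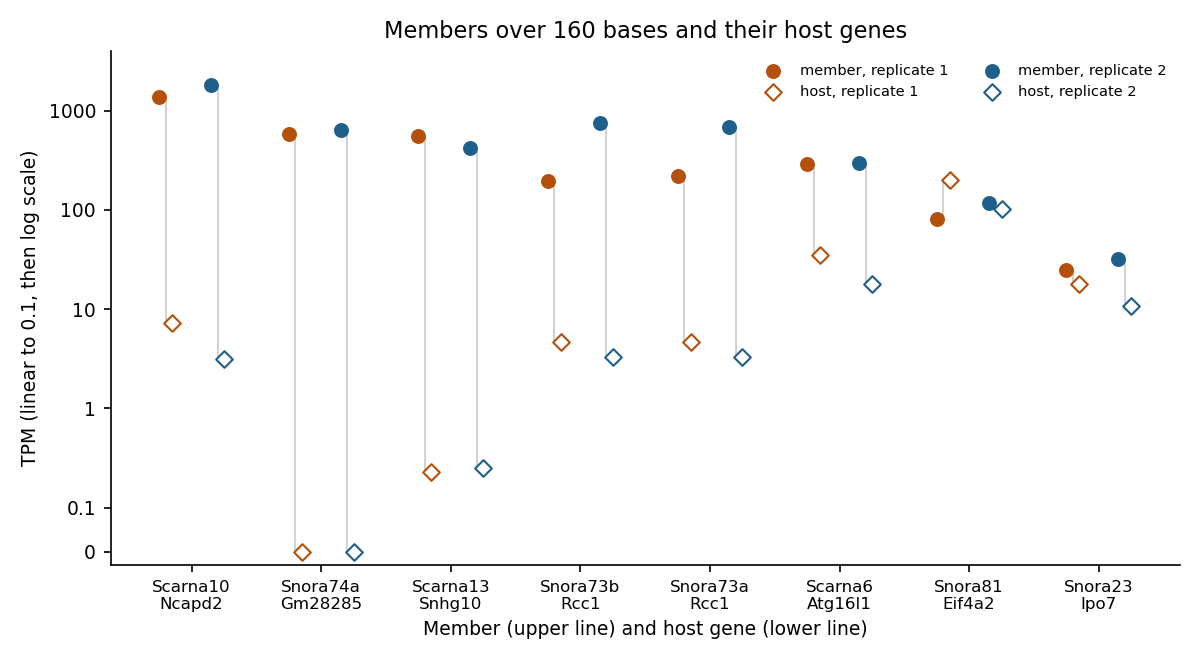
TPM (vertical axis, linear to 0.1 and then on a log scale) of the 8 members over 160 bases that have a host (circles) and of the host gene with the longest span (open diamonds), with replicate 1 left of replicate 2 for each pair. Scarna2 has no host and is not drawn. In all pairs but Snora81 with Eif4a2 in replicate 1 the member lies above its host.

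Between the libraries, the detected members stood lower in replicate 1 than genes at large did. On the TPM + 1 scale, replicate 1 over replicate 2 had a median log2 ratio of -0.26 over the 8 detected members, against 0.42 over all 14584 detected genes. The 4 detected Snord genes had a lower median still, at -0.50, so a lower level in replicate 1 was not particular to the members. Snora73b was at -1.95 and Snora73a at -1.65, the only members beyond 2-fold. That is 2 of 8 lower and 0 of 8 higher in replicate 1, beside backgrounds of 0.357% of genes lower and 3.54% higher. The 2 are near copies between which the split of reads is uncertain, so they do not count as separate observations. Measured from the median of all genes, the same counts were 2 and 0 of 8, beside 1.22% lower and 0.487% higher. The other ratios were -0.53 for Snora81, -0.40 for Scarna10, -0.13 for Snora74a, -0.05 for Scarna6, 0.23 for Scarna2 and 0.42 for Scarna13. In CPM all 8 were lower in replicate 1, from -0.32 for Scarna2 to -3.02 for Snora73b on the log2 scale, against a median of 0.22 for all genes. With TMM scaling the medians were -1.40 for members and -0.03 for all genes. With 1 group of 2 libraries no test was possible.

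The size of these ratios depended on the quantification. In alignment-free TPM the median over the same 8 members was 1.23 and that over all genes 1.35, so the sign turned. There 6 of the 8 members lay below the median of all genes, and Scarna13 at 1.68 and Scarna2 at 1.60 lay above it. Snora73b was at -0.34 and Snora73a at 0.08 there, and the other 4 were between 1.11 and 1.32. The 3 entries with the highest alignment-free TPM in replicate 2, all annotated miRNA genes of 57 bases, had 64143 TPM each in replicate 1 and 237782 TPM each in replicate 2. These entries share their values. The next 2 entries, Gm12896 and Gm12895, went the other way, with 134661 TPM each in replicate 1 and 51503 TPM each in replicate 2. TPM adds up to a fixed total, and the part of all these entries in the ratios was not tested. Relative to the median of all genes, Snora73b was at -1.68 and Snora73a at -1.27 in this table. Starting RNA differed between the libraries, as did effective lengths of the same gene (for Scarna10, 114 bases in replicate 1 and 144 in replicate 2), and their part in the ratios was not tested.

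**Figure D5:**
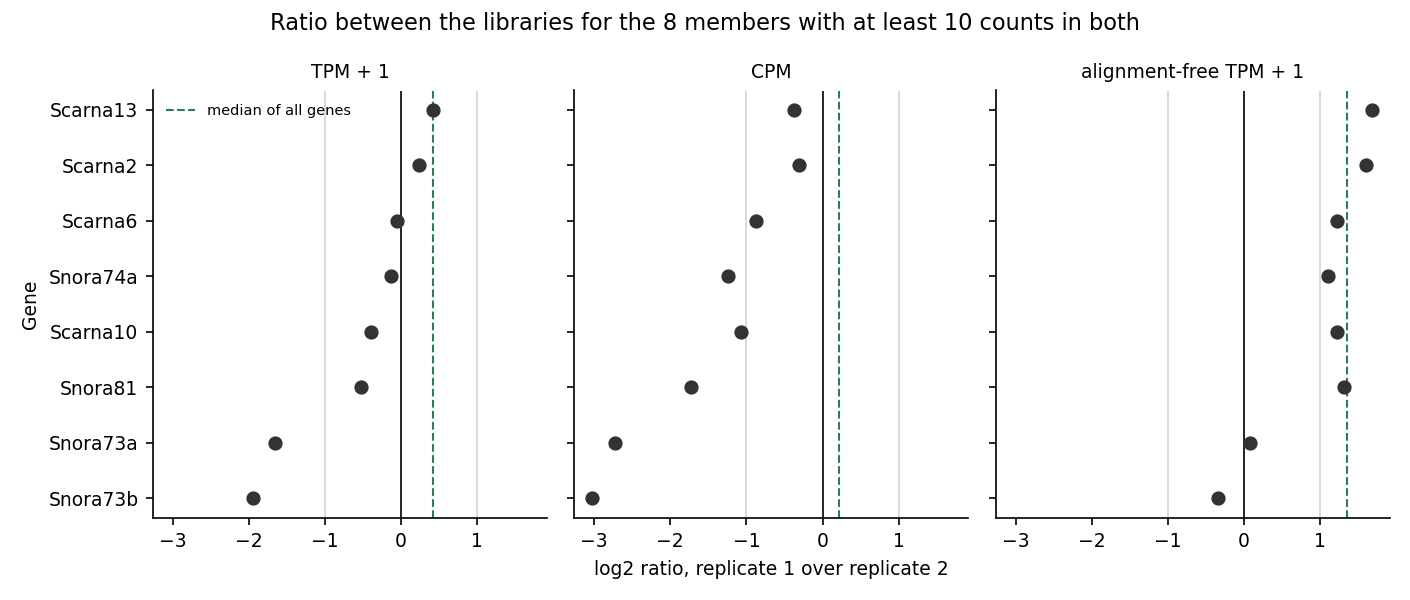
Log2 ratio of replicate 1 over replicate 2 for the 8 members with at least 10 counts in both libraries, on the TPM + 1 scale, in CPM and in alignment-free TPM + 1. The dashed line is the median of all genes detected in the gene table and the grey lines mark 2-fold. Snora73a and Snora73b are lowest on each scale, and the other members move across 0 with the scale.

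Transcripts of the genes for proteins that act with these RNAs were counted in the same libraries. Of 22 listed genes for H/ACA core, assembly, Cajal body and 3′ end proteins 21 were found in the table and 20 were detected. The median was 4.42 TPM in replicate 1 and 2.66 in replicate 2. Among the core proteins, Dkc1, the pseudouridine synthase, had 6.67 TPM in replicate 1 and 5.02 in replicate 2. Nhp2 had 6.42 and 8.28 TPM, and Gar1 6.67 and 2.56 TPM. Nop10, the smallest core protein, had 16 counts in replicate 1 and 9 in replicate 2, or 1.31 and 0.42 TPM, and was the gene of the list that was found but not detected. The assembly factors (Naf1, Shq1, Nufip1, Ruvbl1, Ruvbl2, Pih1d1 and Rpap3) were all detected, from 1.67 TPM on average for Shq1 to 9.03 TPM for Pih1d1.

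Of the Cajal body genes, Tgs1, which forms the trimethyl cap of small RNAs, was highest with 26.9 TPM in replicate 1 and 16.4 in replicate 2. Wrap53, which binds the CAB box, had 2.58 and 1.21 TPM, and Coil, the coilin scaffold of the body, 1.92 and 1.00 TPM. Smn1 had 6.76 and 3.29 TPM and Nolc1 4.42 and 3.60 TPM. Of genes that act on RNA 3′ ends, the nuclear exosome nuclease Exosc10 had 14.5 and 9.19 TPM and the polymerase gene Tent4b 15.9 and 7.71 TPM. Parn had 5.70 and 4.42 TPM, Toe1 4.39 and 3.58 TPM, and Dbr1, which opens intron lariats, 1.72 and 0.55 TPM. Terc, the telomerase RNA, which also ends in an H/ACA domain, had 13 counts in replicate 1 and 71 in replicate 2, or 4.56 and 12.9 TPM. The log2 ratio of Terc, replicate 1 over replicate 2, was -1.32 on the TPM + 1 scale, negative as for most detected members. In alignment-free TPM the direction turned, with 2.55 TPM in replicate 1 and 2.23 in replicate 2. There the median log2 ratio of all genes detected in the gene table was 1.35.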

How the data were processed

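Total RNA-seq was measured in 2 libraries of 1 group. Per the deposited readme, the authors aligned reads to the transcriptome of mm10 with GENCODE M21. Neither the quantifiers nor any use of strand in counting is named in the sources used here. The gene table's expected counts and TPM, its effective lengths and its TPM intervals were used as deposited by the authors, and so were the estimated counts and TPM of the alignment-free table, summed by gene. Rows that name no annotated gene stayed out of totals. The authors' transcript table from the alignment was not used.

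CPM, shares, Wilson intervals of 95%, log2 ratios of replicate 1 to replicate 2 (pseudocount 1 TPM, at least 10 counts in both) and overlaps with M21 exons were computed with Python 3.11.15, pandas 2.3.3, SciPy 1.17.1 and Biopython 1.88. Because no molecular identifiers were counted, intervals and floors describe counting error alone. Counts were rounded for the TMM factors of edgeR 4.0.16 and the size factors of DESeq2 1.42.0 (R 4.3.3). A check of the code used counts simulated with counting error alone, for 9228 genes with at least 100 counts on average. On a count scale centred on the median, 200 of 200 genes changed 8-fold and 0 others passed 2-fold. Such settings make that outcome nearly certain, so it says nothing about the reliability of the ratios reported here. A host is the same-strand gene of the longest span around a member.

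Members, lists and tests were chosen with earlier results of these data known, and the split at 160 bases was made after seeing the lengths. The genes named are Scarna genes with at least 10 counts, the 15 Snora genes highest in count and 5 in TPM, the 3 largest ratios each way between libraries and between tables, their hosts and the protein list. Members outside this rule were chosen after their values were seen: the other Scarna genes, Snora2b, Snora16a, Snora17, Snora24, Snora28, Snora36b, Snora43 and Snora70. Some hosts are not given values. Alternatives were other count minimums, pseudocounts, scalings, host choices, the alignment-free table and each library alone.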

Additional observations from a re-analysis of the deposited data

How the results depend on the processing

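No paired analysis was possible because the libraries form 1 group. The number of members detected was 8; it was 18 with at least 1 count in both libraries, 23 in the alignment-free table and 19 with at least 1 TPM in both, and 8 to 11 in a single library. The members' share of counts averaged 0.0597%, against 0.591% of TPM, 0.0140% without Scarna2 and Scarna10 (an alternative chosen after seeing the data) and 0.0430% to 0.0764% in a single library. The median log2(TPM + 1) averaged 1.48 over all members, 9.00 over detected members and 0 to 2.96 in a single library. The members' median log2 ratio, replicate 1 over replicate 2, was -0.26 as reported. It was -1.40 with TMM (all genes -0.03), -1.42 with DESeq2 size factors (all genes -0.05), -1.15 in CPM (all genes 0.22), -0.68 minus the median of all genes, -0.13 with at least 50 counts and 1.23 in the alignment-free table, or -0.12 there minus its own median. The members more than 2-fold lower in replicate 1 numbered 2, but 6 with TMM (3.28% of all genes), 6 with DESeq2 size factors (3.44%), 5 in CPM (1.68%) and 0 in the alignment-free table, where 6 members and 72.5% of all genes were more than 2-fold higher. Snora73a, at -1.65, reversed to 0.078 in alignment-free TPM. Members above their host in both libraries numbered 12 of 45, 7 in counts per kilobase, 6 among detected members and 12 to 19 in a single library. The mean rho between length and TPM was 0.48, against 0.64 in the alignment-free table and 0.64 with counts. Of 50 alternatives for these results 27 were labelled the same as the main value. For averages this meant within the SD of the 2 libraries, which a single library always meets. The SD of the median log2(TPM + 1) was 2.09, so even -0.27, with a pseudocount of 0.1 TPM, was labelled the same. The number is therefore no measure of stability. The centred 2-fold counts, the centred alignment-free ratios, the restriction to detected members for hosts and the split of lengths were chosen after seeing the data. The cause of these differences was not tested. In the gene table, where 24 short members had 0 counts in both libraries, differences among those 24 could not be seen. Some of the 24 had alignment-free counts in the same libraries, such as Snora30 with 49 in replicate 1 and 43 in replicate 2.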

Other observations

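The annotation gives the gene type scaRNA to 44 further entries whose symbols begin with neither Scarna nor Snora. Of these 3 were detected, and together they had 16254 counts in replicate 1 and 20485 in replicate 2, above the 5805 and 13703 counts of all members. Gm22009, an entry of 343 bases, held most of them, with 15556 counts in replicate 1 and 18763 in replicate 2. It was chosen after its values were seen, and the files give no Scarna symbol for it.

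Among box C/D genes, Snord22 (126 bases) had 47.9 counts and 0 TPM in replicate 1, and 626 counts and 13107 TPM in replicate 2. Snord17, the only Snord gene over 160 bases, had 252 counts in replicate 1 and 464 in replicate 2.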
